A study of Mus musculus with 2 samples.

Results

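The 38 genes described here encode the folding, export and stress response machinery of the endoplasmic reticulum (ER), out of 31053 genes in the count matrices. They were chosen by symbol from a given list, and each symbol occurred once in the matrices. The list has 33 chaperone and secretory genes and 5 integrated stress response genes (Atf4, Ddit3, Trib3, Asns and Chac1). Single-cell RNA libraries had been made by 10x Genomics droplet sequencing from crypt cells isolated from the colon of 4-week-old C57BL/6 mice. The control library came from mice with the genotype M14(f/f), whose Mettl14 alleles carry loxP sites and no Cre. The other library, called Mettl14_cKO, came from M14(f/f);Villin-Cre mice, in which the Villin promoter drives Cre in the gut epithelium. M14 was read as Mettl14, which encodes a subunit of the RNA m6A methyltransferase. Each genotype had 1 library, which pooled cells of 3 mice, so that genotype, library and pool of mice cannot be told apart and no test between genotypes was possible.

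Proteins that enter the ER are folded by chaperones such as BiP (Hspa5) and by disulfide isomerases, and those that fail are sent to degradation. In the unfolded protein response, the sensors Ire1 (Ern1, and its gut epithelial paralogue Ern2), Atf6 and Perk (Eif2ak3) detect unfolded protein and raise chaperone transcription, in part through Xbp1. Perk also feeds the integrated stress response, in which phosphorylated eIF2alpha favours translation of Atf4, and Atf4 then induces genes such as Ddit3, Trib3, Asns and Chac1. Goblet cells, which fold and export very large amounts of the mucin Muc2, are known for their extensive ER.

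The control library had 111239295 UMIs in 10181 barcodes and the Mettl14_cKO library 89729527 in 9225, with 33 barcodes in both. After filtering, 4243 control and 2499 Mettl14_cKO cells were goblet-like, and 4462 and 3550 were other epithelial-like cells. All 15 goblet markers, by which the goblet-like clusters were named, were detected in goblet-like cells of both libraries. Their summed level was 43259 CPM (UMIs of a gene in 1000000 UMIs of all genes, where UMIs are unique molecular identifiers) in control and 33235 CPM in Mettl14_cKO. Muc2 alone was at 10316 and 4845 CPM. All 15 were also detected in other epithelial-like cells, at a summed 2801 and 3190 CPM. The goblet-like class drew on different clusters: 6 clusters held 4239 of the control cells and 3 others held 2373 of the Mettl14_cKO cells, each cluster with at least 90% of its cells from 1 library. The other epithelial-like cells also differed in make-up: colonocyte-like cells numbered 1858 in control and 357 in Mettl14_cKO, cycling-like cells 1242 and 698, enteroendocrine-like cells 220 and 386, tuft-like cells 50 and 43, and epithelial clusters without a name 1092 and 2066. Goblet-like cells had a median of 11675 UMIs in control and 11031 in Mettl14_cKO, and other epithelial-like cells 8639 and 7605. The median mitochondrial share in goblet-like cells was 3.14% in control and 5.26% in Mettl14_cKO, and Gm42418, a gene that overlaps ribosomal RNA, was at 727 and 1515 CPM. The summed level of the 9 B or plasma cell markers there was 1.30 and 17.2 CPM, with Jchain alone at 0 in control, that of 14 myeloid markers 18.7 and 36.2 CPM, with 6 of them at 0 in control and 1 in Mettl14_cKO, and that of 12 T or NK cell markers 7.25 and 4.49 CPM, with none at 0. The summed level of the 16 colonocyte markers in goblet-like cells was 2573 CPM in control and 751 CPM in Mettl14_cKO, and that of the 15 cycling markers 1742 and 733 CPM. The part of these cell types in the results was not tested. Mettl14 itself was at 4.87 CPM in control and 4.13 CPM in Mettl14_cKO goblet-like cells, and at 4.63 and 5.77 CPM in other epithelial-like cells. The sources used here do not give the deleted exons or the end of the transcript that was read, so these levels do not check the deletion.

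Chaperone promoters are known for the ER stress response element, a site read by Atf6 and Xbp1, and genes of the integrated stress response for the C/EBP-ATF element, read by Atf4. In RefSeq windows from 250 bases before to 50 bases after the start (GRCm38.p6), the element, spelled as CCAAT and CCACG with 9 bases of any kind between and searched on both strands, occurred in 8 of the 26 chaperone and secretory genes with a window: Hspa5, Hsp90b1, Calr, Canx, Pdia6, Dnajc3, Creld2 and Syvn1. It occurred in 0.119% of all 32851 windows and in none of the 5 integrated stress response genes. A shorter form, spelled as ATTGG and CCACG with 1 base of any kind between, occurred in Herpud1 and Dnajb11 and in 0.0365% of all windows. The element TGACGTGG, also of the unfolded protein response, occurred in Kdelr3 and in 0.676% of all windows. The C/EBP-ATF element TGATGNAA occurred in Asns, Chac1 and Trib3, in Herpud1 and in 3.97% of all windows. Such a match is a string of letters in a window and was not tied to binding of any factor here. The sequences just before the start of 5 chaperone and degradation genes are shown because Hspa5 and Herpud1 differed between the libraries by more than 2-fold in opposite directions in goblet-like cells, and Hsp90b1, Pdia6 and Dnajc3 share the element of Hspa5 with little difference. The capitals mark the elements, in Hsp90b1 one on each strand. The positions are chr2:34771960-34772089 (plus strand) for Hspa5, chr10:86705445-86705674 (minus strand) for Hsp90b1, chr12:17266459-17266588 (plus strand) for Pdia6, chr14:118937802-118937931 (plus strand) for Dnajc3 and chr8:94386299-94386428 (plus strand) for Herpud1. In Herpud1 the first run of capitals is the C/EBP-ATF element on the opposite strand and the second is the shorter ER stress element.
Hspa5: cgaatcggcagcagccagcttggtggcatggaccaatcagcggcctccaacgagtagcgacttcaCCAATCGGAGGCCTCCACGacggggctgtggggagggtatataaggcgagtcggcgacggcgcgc
Hsp90b1: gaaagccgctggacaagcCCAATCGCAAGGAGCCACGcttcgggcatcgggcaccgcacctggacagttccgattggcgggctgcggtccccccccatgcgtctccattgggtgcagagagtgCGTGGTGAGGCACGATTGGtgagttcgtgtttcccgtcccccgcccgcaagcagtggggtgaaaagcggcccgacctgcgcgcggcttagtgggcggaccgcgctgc
Pdia6: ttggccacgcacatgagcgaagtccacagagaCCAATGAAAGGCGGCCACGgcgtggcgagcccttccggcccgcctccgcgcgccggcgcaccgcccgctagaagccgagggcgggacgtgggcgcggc
Dnajc3: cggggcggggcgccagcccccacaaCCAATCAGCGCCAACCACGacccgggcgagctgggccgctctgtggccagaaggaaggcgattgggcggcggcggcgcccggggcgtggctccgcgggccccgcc
Herpud1: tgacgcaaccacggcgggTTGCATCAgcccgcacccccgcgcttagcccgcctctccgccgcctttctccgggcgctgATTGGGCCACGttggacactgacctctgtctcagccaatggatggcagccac

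The windows of Asns, chr6:7693210-7693339 (minus strand), and Chac1, chr2:119351032-119351241 (plus strand), are shown because both genes were higher in Mettl14_cKO in goblet-like and in other epithelial-like cells. The capitals mark the C/EBP-ATF element, which in Chac1 lies on the opposite strand.
Asns: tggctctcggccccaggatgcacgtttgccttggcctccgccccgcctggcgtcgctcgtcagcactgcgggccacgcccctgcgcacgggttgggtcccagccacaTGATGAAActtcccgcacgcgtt
Chac1: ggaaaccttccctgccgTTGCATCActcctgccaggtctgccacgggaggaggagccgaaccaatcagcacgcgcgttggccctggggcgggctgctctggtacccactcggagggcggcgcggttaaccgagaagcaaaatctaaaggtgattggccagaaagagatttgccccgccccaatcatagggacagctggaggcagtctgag

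Most chaperone and secretory genes were higher in goblet-like than in other epithelial-like cells of the control library. Of the 32 that passed the filter of a mean of at least 10 CPM, 26 were at least 1.5-fold higher and none was at least 1.5-fold lower, and the median log2 ratio of CPM + 1 was 1.09. Of all 7091 genes that passed, 16.0% were at least 1.5-fold higher and 12.2% at least 1.5-fold lower, with a median of 0.01. Summed over all 33 genes, the level was 10417 CPM in goblet-like and 4512 CPM in other epithelial-like cells, a ratio of 2.31. The members were left out of the genes used to cluster the cells. Intervals here and below are 95% intervals for counting error and say nothing of differences between mice.

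The genes with the highest ratios in control served prolyl isomerisation, retrieval, disulfide exchange and degradation. Fkbp11, a prolyl isomerase of secretory cells, was at 287 CPM in goblet-like and 24.0 CPM in other epithelial-like cells and so was 11.9-fold higher (95% interval 11.3 to 12.7). Kdelr3, a receptor that returns KDEL proteins from the Golgi to the ER, was at 138 and 11.2 CPM, 12.4-fold higher (95% interval 11.4 to 13.5). The related receptor Kdelr2 was at 581 and 163 CPM. Both receptors and Fkbp11 were thus well above the 1.5-fold line in control goblet-like cells. Pdia5, a disulfide isomerase, was at 150.2 and 18.5 CPM, 8.11-fold higher (95% interval 7.58 to 8.69). Herpud1, a membrane protein of ER-associated degradation, was at 573 and 84.9 CPM, 6.74-fold higher (95% interval 6.53 to 6.96).

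The 4 lowest ratios in control all lay between the 1.5-fold lines. Sel1l, the adaptor of the degradation ligase Syvn1, was at 21.6 CPM in goblet-like and 16.2 CPM in other epithelial-like cells, a log2 ratio of 0.40. Dnajb11, a J-domain cofactor of BiP, was at 157 and 126 CPM (0.32). Canx, the membrane-bound lectin chaperone calnexin, was at 126 and 142 CPM (-0.17). Its soluble relative Calr was at 457 and 238 CPM (0.94), so the 2 lectin chaperones stood apart in control. Dnajb9, another J-domain cofactor, was at 55.5 and 65.1 CPM (-0.23), the lowest ratio of the 32. By class, Dnajb9 was at 95.2 CPM in control colonocyte-like cells, above the goblet-like level, and at 25.5 CPM in control cycling-like cells, below it.

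**Figure D1:**
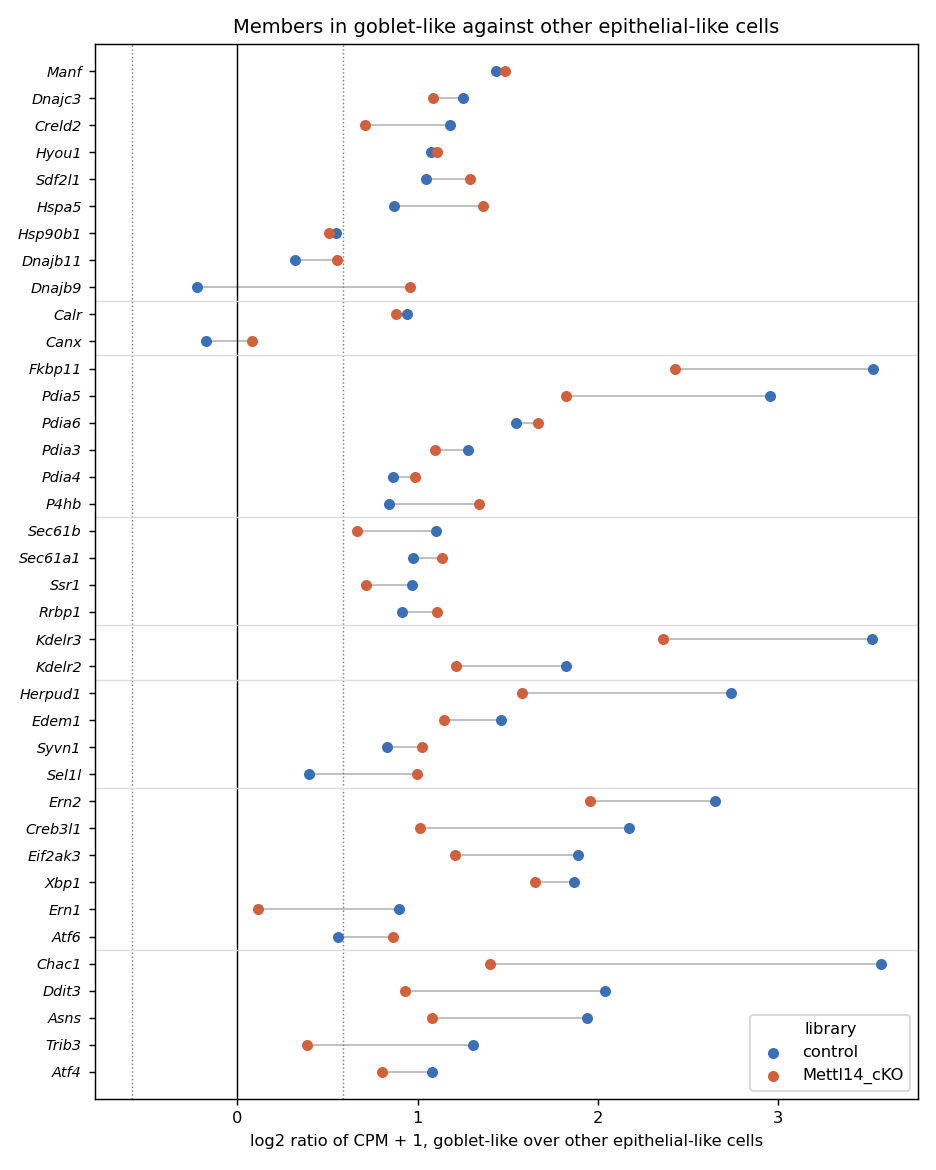
The log2 ratio of CPM + 1 in goblet-like over other epithelial-like cells for each of the 38 genes, in control (blue) and Mettl14_cKO (orange), with genes grouped by role between thin grey lines and dotted lines at 1.5-fold. In control Fkbp11, Kdelr3 and Chac1 lie above 3.5 and Canx and Dnajb9 below 0, while in Mettl14_cKO no member lies below 0.

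The chaperones proper were higher in goblet-like cells by smaller ratios. In control Hspa5 was at 675 CPM in goblet-like and 369.7 CPM in other epithelial-like cells (log2 ratio 0.87), Hsp90b1 at 824 and 563 CPM (0.55) and Hyou1 at 30.8 and 14.1 CPM (1.07). Of their cofactors, Dnajc3, which also inhibits Perk, was at 201 and 83.8 CPM (1.25) and Sdf2l1 at 151 and 72.7 CPM (1.04). Manf was at 682 and 251 CPM (1.44) and Creld2, a secreted ER stress protein, at 93.5 and 40.7 CPM (1.18). Hsp90b1 was the one of these genes under the 1.5-fold line. The disulfide isomerases other than Pdia5 had log2 ratios of 1.54 for Pdia6, 1.28 for Pdia3, 0.86 for Pdia4 and 0.84 for P4hb. The genes of the entry channel and its surroundings had 1.10 for Sec61b, 0.97 for Sec61a1, 0.97 for Ssr1 and 0.91 for Rrbp1. The degradation genes Edem1 and Syvn1 had 1.46 and 0.83.

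Among the sensors and transcription factors, Ern2 was the most concentrated in goblet-like cells. It was at 68.0 CPM in control goblet-like and 10.0 CPM in other epithelial-like cells, 6.80-fold higher (95% interval 6.20 to 7.48), and at 48.1 and 11.7 CPM in Mettl14_cKO, 4.13-fold higher (95% interval 3.75 to 4.55). With each cell thinned to 1700 UMIs, 13.7% (543 of 3974 cells) of control and 12.0% (273 of 2280 cells) of Mettl14_cKO goblet-like cells had an Ern2 UMI, against 55.6% and 46.5% before thinning. T or NK-like cells, which should lack Ern2, had none in 169 control cells, which allows a share of up to 1.78%, and 1 in 249 Mettl14_cKO cells. Before thinning, T or NK-like cells had a median of 1627 and 1939 UMIs in control and Mettl14_cKO, and only those with 1700 or more entered. Ern1, its widely expressed paralogue, did not pass the filter and was at 9.16 and 4.45 CPM in control and 9.78 and 8.97 CPM in Mettl14_cKO goblet-like and other epithelial-like cells. Eif2ak3 was at 32.7 and 8.11 CPM in control, 4.03-fold higher (95% interval 3.62 to 4.50), and at 25.6 and 10.5 CPM in Mettl14_cKO, 2.44-fold higher (95% interval 2.18 to 2.72). Atf6 was at 21.1 and 14.01 CPM in control (log2 ratio 0.56) and at 28.0 and 14.9 CPM in Mettl14_cKO (0.87). Among the epithelial classes Atf6 was highest in enteroendocrine-like cells, at 95.4 and 97.2 CPM. That level lay in the larger of their clusters, at 145 and 138 CPM, while the other was at 13.1 and 24.6 CPM. With the other classes weighted equally the Mettl14_cKO log2 ratio of Atf6 went to -0.000764. Xbp1, whose spliced and unspliced forms are not separated by these counts, was at 360.3 and 97.9 CPM in control and 263 and 83.0 CPM in Mettl14_cKO.

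The same concentration in goblet-like cells was seen in the Mettl14_cKO library. Of the 32 genes, 29 were at least 1.5-fold higher and none at least 1.5-fold lower, with a median log2 ratio of 1.11, while 10.6% of all genes were at least 1.5-fold higher, 17.8% at least 1.5-fold lower and their median was -0.18. The summed level was 11094 CPM in goblet-like and 5206 CPM in other epithelial-like cells, a ratio of 2.13. Fkbp11, Kdelr3, Ern2 and Pdia5 had the highest ratios, with log2 values of 2.43, 2.36, 1.96 and 1.82. Herpud1, among the 4 highest in control at 2.74, was at 1.58. Sec61b, a subunit of the Sec61 channel through which chains enter the ER, Dnajb11, Hsp90b1, the ER member of the Hsp90 family, and Canx had the lowest, with 0.66, 0.55, 0.51 and 0.08.

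The ratio of single genes differed between the libraries by more than counting error in both directions. Dnajb9 had a log2 ratio higher in Mettl14_cKO by 1.21 (95% interval 1.09 to 1.33), with 62.1 CPM in goblet-like and 31.5 CPM in other epithelial-like cells. Sel1l was higher by 0.60 (95% interval 0.44 to 0.77), P4hb, the beta subunit of prolyl hydroxylase and a disulfide isomerase, by 0.50 (95% interval 0.45 to 0.55) and Hspa5 by 0.49 (95% interval 0.46 to 0.52). Kdelr3 differed by -1.22 (95% interval -1.38 to -1.06), Pdia5 by -1.18 (95% interval -1.30 to -1.06), Creb3l1, a membrane-bound factor of secretory cells related to Atf6, by -1.17 (95% interval -1.26 to -1.07), Herpud1 by -1.16 (95% interval -1.23 to -1.09) and Fkbp11 by -1.11 (95% interval -1.23 to -0.99). These values are log2 differences without a pseudocount, and they mix the goblet-like cells with an other epithelial-like class whose make-up differed between the libraries. The other epithelial-like side of the genes with negative differences depended on the clustering. With each library clustered on its own, its log2 ratio of Mettl14_cKO over control was -1.56 for Fkbp11, -0.91 for Herpud1 and -0.77 for Creb3l1, in place of 0.15, 0.10 and 0.04. Kdelr3 and Pdia5 were at -0.90 and 0.13 in that setting, while both were at least 1.5-fold higher in the main clustering.

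Taken class by class, goblet-like cells had the highest summed level of the 33 genes among the epithelial classes in both libraries. In control the sum was 10417 CPM in goblet-like, 7108 in enteroendocrine-like, 6757 in tuft-like, 5217 in cycling-like, 4789 in unnamed epithelial and 3837 in colonocyte-like cells. In Mettl14_cKO the order was goblet-like at 11094, enteroendocrine-like at 6971, cycling-like at 5794, unnamed epithelial at 5259, tuft-like at 4835 and colonocyte-like at 3203 CPM. Muc2 was at 3235 CPM in control and 338 CPM in Mettl14_cKO enteroendocrine-like cells and at 6757 and 1133 CPM in tuft-like cells, where the control value was by coincidence as many UMIs, 1943, as the 33 genes summed, and the part of goblet cell RNA in these sums was not tested. Plasma cells, which also secrete, are in the B or plasma-like class, whose 175 Mettl14_cKO cells had 7528 CPM. Against enteroendocrine-like cells, 16 of the 32 genes in control and 19 in Mettl14_cKO were at least 1.5-fold higher in goblet-like cells, where 9.80% and 18.8% of all genes were, and 1 and 2 were at least 1.5-fold lower, beside 12.3% and 30.7%. Against colonocyte-like cells the counts were 28 higher and 1 lower in control, beside 33.3% and 15.5% of all genes, and 31 higher and none lower in Mettl14_cKO, beside 38.1% and 16.2%. Against cycling-like cells 25 in control and 23 in Mettl14_cKO were higher, beside 17.7% and 15.0% of all genes, and against unnamed epithelial cells 26 and 28, beside 13.5% and 12.2%. In neither library was any of the 32 genes lower in goblet-like than in cycling-like or unnamed epithelial cells by 1.5-fold. Of all genes, 18.6% in control and 21.9% in Mettl14_cKO were lower against cycling-like cells, and 10.6% and 19.5% against unnamed epithelial cells.

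Between the libraries, the chaperone and secretory genes of goblet-like cells did not move as a group. Their summed level was 10417 CPM in control and 11094 CPM in Mettl14_cKO, a ratio of 1.07, and the median log2 ratio was 0.05 beside -0.13 for all genes. Of the 32 genes, 4 were at least 1.5-fold higher in Mettl14_cKO, beside 11.1% of all genes, and 5 at least 1.5-fold lower, beside 17.0% of all genes. Both shares of members were near those of all genes, but at Leiden resolution 2 there were 9 of 32 lower, beside 13.2% of all genes. The genes past the line were Hspa5, Sel1l, Pdia4 and Manf on the higher side and Creb3l1, Herpud1, Edem1, Fkbp11 and Kdelr2 on the lower side.

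Hspa5 stood out by its level. It was at 675 CPM (38928 UMIs) in control and 1568 CPM (56250 UMIs) in Mettl14_cKO goblet-like cells and so was 2.32-fold higher (95% interval 2.29 to 2.35) in Mettl14_cKO. Without Hspa5, the summed level of the other 32 genes was 9741 CPM in control and 9526 CPM in Mettl14_cKO, so the small excess of the sum was that of Hspa5. With each cell thinned to 1700 UMIs, 67.5% (2682 of 3974 cells) of control and 86.0% (1961 of 2280 cells) of Mettl14_cKO goblet-like cells had an Hspa5 UMI, against 95.2% and 96.3% before thinning. No cell type is known to lack Hspa5, and of thinned T or NK-like cells 69.2% (117 of 169 cells) and 59.4% (148 of 249 cells) had a UMI. In T or NK-like cells, in which Villin is not known to be expressed, Hspa5 was at 808 CPM in control and 597 CPM in Mettl14_cKO, the opposite order. The make-up of these cells differed too. A cluster led by Ccl5 and Gzma held 353 control and 177 Mettl14_cKO cells, and one led by Trdc and Il17a held 4 and 216. The part of this mix was not tested.

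Sel1l was at 21.6 CPM in control and 52.3 CPM in Mettl14_cKO goblet-like cells, 2.42-fold higher (95% interval 2.25 to 2.60). Pdia4, a disulfide isomerase, was at 109.8 and 182 CPM, 1.65-fold higher (95% interval 1.60 to 1.71). Manf, a small secreted ER protein that rises under ER stress, was at 682 and 1033 CPM, 1.52-fold higher (95% interval 1.49 to 1.54). This excess of Manf was not shared by all clusters. Over goblet-like clusters Manf ran from 509 to 891 CPM in control and from 396 to 1206 CPM in Mettl14_cKO, lowest in a cluster of 1093 cells. With each cell weighted equally its log2 ratio went from 0.60 to 0.17. Hspa5 and Sel1l stayed past 1.5-fold in all 16 alternative settings, Pdia4 in 14 of 16 and Manf in 9 of 16. For Hspa5 1 of the 16, with the T or NK-like level subtracted, decides nothing. In control that level was above the goblet-like one, so the log2 ratio of 9.92 there followed from the subtraction. Other ER chaperones lay between the lines: Hsp90b1 was at 824 and 683 CPM, Calr at 457 and 553 CPM, and Hyou1, an exchange factor for BiP, at 30.8 and 35.8 CPM. The log2 ratios of the 8 genes with the ER stress response element ran from -0.56 for Creld2, through -0.27 for Hsp90b1, -0.04 for Canx, -0.03 for Dnajc3, -0.02 for Syvn1, 0.11 for Pdia6 and 0.28 for Calr, to 1.21 for Hspa5. Genes that share the element did not share a direction.

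On the lower side, Creb3l1 was at 232 CPM in control and 106 CPM in Mettl14_cKO goblet-like cells, 2.19-fold lower (95% interval 2.11 to 2.27). Herpud1 was at 573 and 275 CPM, 2.08-fold lower (95% interval 2.03 to 2.13). Edem1, a lectin that passes misfolded glycoproteins to degradation, was at 66.5 and 33.2 CPM, 2.005-fold lower (95% interval 1.88 to 2.14). The degradation genes thus went apart, with Sel1l higher, Herpud1 and Edem1 lower, and Syvn1 at 18.0 and 17.7 CPM. Fkbp11 was at 287 and 149 CPM, 1.93-fold lower (95% interval 1.87 to 1.99). Kdelr2 was at 581 and 320.0 CPM, 1.81-fold lower (95% interval 1.78 to 1.85). All 5 genes stayed at least 1.5-fold lower in all 16 alternative settings. Of the sensors, Atf6 had a log2 ratio of 0.39, Eif2ak3 of -0.34 and Ern1 of 0.09, and Ern2 of -0.49, all between the lines or, for Ern1, under the filter. The translocon genes Sec61b, Sec61a1 and Ssr1 and the ribosome receptor gene Rrbp1 had ratios of -0.05, 0.31, 0.23 and 0.20.

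The remaining chaperone and secretory genes also lay between the lines in goblet-like cells, and many were close to equal. Pdia3, an isomerase of glycoproteins, was at 845 CPM in control and 980.3 CPM in Mettl14_cKO, Pdia6 at 630.2 and 681 CPM, Pdia5 at 150.2 and 179 CPM, and Dnajc3 at 201 and 197 CPM. In these sums Pdia3, Pdia5 and Pdia6 were thus level or a little higher in Mettl14_cKO, and P4hb, at 300.3 and 439 CPM, was 1.46-fold higher (95% interval 1.43 to 1.49). In the Mettl14_cKO goblet-like cluster of 1093 cells Pdia6 was at 314 CPM, below the control clusters (458 to 820 CPM). Pdia3 was there at 624 CPM and Pdia5 at 127 CPM, within the control ranges. With each cell weighted equally the log2 ratio was -0.33 for Pdia6 and -0.07 for Pdia3. On the lower side of 0 were Creld2 at 93.5 and 63.2 CPM, Xbp1 (-0.45), Sdf2l1 (-0.41) and Kdelr3 (-0.31).

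**Figure D2:**
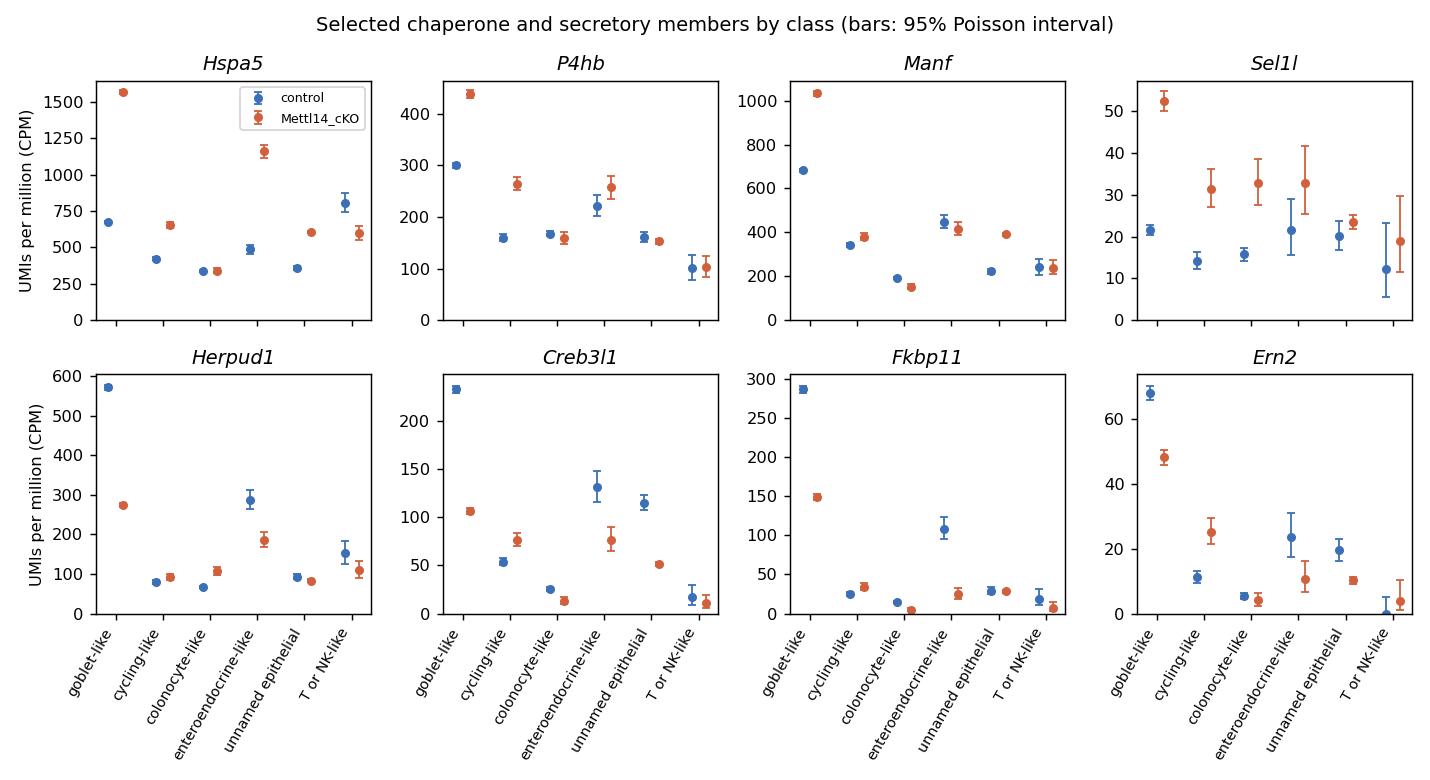
Levels of 8 chaperone and secretory genes in CPM, by class and library (control blue, Mettl14_cKO orange), with bars for the 95% Poisson interval of counting error. Hspa5 and Sel1l are higher in Mettl14_cKO goblet-like cells, Herpud1, Creb3l1 and Fkbp11 are lower, and in T or NK-like cells Hspa5 has the opposite order. The make-up of the T or NK-like cells differed between the libraries.

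Because no goblet-like cluster held both genotypes in number, the levels were also read cluster by cluster. Over the 6 control and 3 Mettl14_cKO goblet-like clusters of at least 50 cells, Hspa5 ran from 524 to 816 CPM in control and from 1314 to 1789 CPM in Mettl14_cKO. The ranges did not overlap. Sel1l ran from 18.8 to 23.9 and from 47.5 to 78.3 CPM. Herpud1 ran from 283 to 838 in control and from 142 to 269 CPM in Mettl14_cKO, and Creb3l1 from 157 to 304 and from 57.8 to 113 CPM. In all, 2 of the 32 chaperone and secretory genes had every Mettl14_cKO cluster above every control cluster, beside 9.14% of all genes, and 5 had every Mettl14_cKO cluster below, beside 15.0% of all genes. Those 5 were Herpud1, Edem1, Kdelr2, Fkbp11 and Creb3l1. Clusters of 1 library are not replicates, and these counts describe the 2 libraries only.

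The levels of P4hb and Rrbp1 rested on 1 cluster. The Mettl14_cKO goblet-like cluster with a median mitochondrial share of 12.2% (1093 cells, median 3155 UMIs) had 1092 CPM of P4hb and 1619.8 CPM of Rrbp1. The 2 other Mettl14_cKO goblet-like clusters had 333 and 410.2 CPM of P4hb and 529 and 438 CPM of Rrbp1, at median mitochondrial shares of 2.96% and 3.15%. Without the 3 clusters above 10% mitochondrial UMIs, the log2 ratio of Mettl14_cKO over control in goblet-like cells went from 0.55 to 0.21 for P4hb and from 0.20 to -0.14 for Rrbp1. Ern2 went from -0.49 to -0.78, while Hspa5 stood at 1.23, Sel1l at 1.14, Herpud1 at -0.96 and Creb3l1 at -1.13.

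A small set of Mettl14_cKO goblet-like cells lay in the 6 clusters made mostly of control cells. These 126 cells were 5.04% of the Mettl14_cKO goblet-like cells. Hspa5 was at 692 CPM in them (95% interval 665 to 721), against 675 CPM in the control cells of the same clusters and 1659 CPM in the other 2373 Mettl14_cKO goblet-like cells. Their Hspa5 level was thus close to that of the control cells. Herpud1 was at 552, 573 and 246 CPM in the same order, Creb3l1 at 250.2, 232 and 91.2 CPM, and Sel1l at 29.4, 21.6 and 54.7 CPM. Fkbp11 was at 446 CPM in them, above the 287 CPM of the control cells. These cells were grouped by their expression of other genes, so their likeness to control cells is a description. The 126 cells held 3396986 UMIs, beside 57636660 in the 4239 control cells and 32478605 in the other 2373, so they were deeper per cell. They were also spread over the 6 clusters in other proportions than the control cells. The part of depth and spread in their levels was not tested. Whether the 126 cells kept Mettl14 cannot be read from these counts.

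In other epithelial-like cells the balance of the chaperone and secretory genes between the libraries depended on how the cells were classed. Of the 32 genes, 5 were at least 1.5-fold higher in Mettl14_cKO, beside 18.9% of all genes, and 3 at least 1.5-fold lower, beside 11.8% of all genes, and the median log2 ratio was 0.12 beside 0.07. With each library clustered on its own, 0 were higher and 10 lower, beside 14.8% and 12.0% of all genes. With the T or NK-like level subtracted, 15 were higher and 1 lower, beside 29.5% and 22.3%. Pdia5 was at 18.5 CPM in control and 49.8 CPM in Mettl14_cKO, Kdelr3 at 11.2 and 20.8 CPM, Hspa5 at 369.7 and 610.3 CPM, Sel1l at 16.2 and 25.8 CPM and Pdia4 at 59.9 and 91.4 CPM. Dnajb9 was at 65.1 and 31.5 CPM, 2.07-fold lower (95% interval 1.94 to 2.20), and Edem1 and Sdf2l1, a cofactor of BiP, had log2 ratios of -0.67 and -0.65. Colonocyte-like cells, high in Dnajb9 in control, numbered 1858 and 357. In clusters with at least 50 cells of each library Dnajb9 had no common direction. It was at 25.8 and 32.8 and at 21.8 and 18.0 CPM in cycling-like clusters. Unnamed epithelial clusters had 21.9 and 21.2 and 41.9 and 21.7 CPM, and enteroendocrine-like ones 53.1 and 82.8 and 47.1 and 60.2 CPM. The part of make-up was not tested. Hsp90b1 (-0.23), Canx (-0.29) and the sensors Atf6 (0.09) and Eif2ak3 (0.34) lay between the lines, and Ern1, under the filter, had 0.87. With each class weighted equally, the ratio of Pdia5 went from 1.38 to -0.01 and that of Kdelr3 from 0.85 to -0.53. These calls were less steady than those in goblet-like cells: Hspa5 stayed past the line in 15 of 16 alternative settings, Dnajb9 and Edem1 in 14 of 16 and 14 of 16, Sdf2l1 in 13 of 16, Sel1l in 12 of 16, Pdia5 in 10 of 16, and Pdia4 and Kdelr3 in 8 of 16 and 8 of 16.

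Summed by class, Hspa5 was higher in Mettl14_cKO in 3 of the 4 larger classes of other epithelial-like cells. It was at 487 and 1159.7 CPM in enteroendocrine-like cells, 2.38-fold higher (95% interval 2.21 to 2.57), at 356 and 605 CPM in unnamed epithelial cells, and at 423 and 652 CPM in cycling-like cells. In colonocyte-like cells it was at 335 CPM in control and 339.8 CPM in Mettl14_cKO, within counting error (328 to 342 and 323 to 357). The make-up of these classes by cluster differed between the libraries. In the cycling-like cluster of 910 control and 63 Mettl14_cKO cells Hspa5 was at 425 and 415 CPM. In that of 332 and 635 cells it was at 399 and 766 CPM. Unnamed epithelial clusters with at least 50 cells of each library had 495 and 529 CPM and 323 and 538 CPM. Enteroendocrine-like clusters had 456 and 996 CPM and 539 and 1454 CPM. Of the 32 chaperone and secretory genes, 10 were at least 1.5-fold higher and 1 lower in cycling-like cells, beside 14.9% and 12.0% of all genes. In colonocyte-like cells 2 were higher and 11 lower, beside 14.1% and 24.2% of all genes, and in enteroendocrine-like cells 2 were higher and 10 lower, beside 19.1% and 19.3% of all genes. In unnamed epithelial cells 3 were higher and 4 lower, beside 17.6% and 16.0% of all genes. Fkbp11 was among the lower genes of colonocyte-like and enteroendocrine-like cells, at 14.4 and 4.75 CPM in colonocyte-like and 109 and 25.4 CPM in enteroendocrine-like cells, whose Muc2 levels also differed between the libraries as given above. In cycling-like cells Pdia5 (22.7 and 68.8 CPM) and Kdelr3 (9.04 and 24.7 CPM) were higher in Mettl14_cKO, where Muc2 was at 354 and 872 CPM and the median mitochondrial share 3.56% and 11.5%. In the cycling-like cluster of 910 and 63 cells Pdia5 was at 21.5 and 18.5 CPM, and in that of 332 and 635 cells at 37.9 and 93.1 CPM. How far Muc2, mitochondrial share and the mix of clusters entered these class values was not tested.

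The integrated stress response genes did not move together. In goblet-like cells Asns, Chac1 and Trib3 were higher in Mettl14_cKO and Ddit3 was lower, and in other epithelial-like cells the same 3 genes were higher by larger ratios. Of the 4 genes that passed the filter, 2 were at least 1.5-fold higher and 1 lower in each comparison, beside the 11.1% and 17.0% of all genes in goblet-like and the 18.9% and 11.8% in other epithelial-like cells. The summed level of all 5 was 514 and 472 CPM in goblet-like cells and 192 and 244 CPM in other epithelial-like cells. Atf4, the factor whose translation these stress signals raise, was at 316 and 223 CPM in goblet-like and 149 and 127 CPM in other epithelial-like cells, with log2 ratios of -0.50 and -0.22. RNA levels do not measure Atf4 protein.

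Asns, which makes asparagine, was at 80.3 CPM in control and 173 CPM in Mettl14_cKO goblet-like cells, 2.16-fold higher (95% interval 2.08 to 2.24), and at 20.2 and 81.4 CPM in other epithelial-like cells, 4.03-fold higher (95% interval 3.76 to 4.33). Chac1, which degrades glutathione, was at 24.3 and 41.6 CPM in goblet-like cells, 1.71-fold higher (95% interval 1.59 to 1.84), and at 1.13 (57 UMIs) and 15.1 CPM in other epithelial-like cells, 13.4-fold higher (95% interval 10.2 to 17.8). Trib3, a pseudokinase induced by Atf4 and Ddit3, did not pass the filter and was at 2.06 and 10.9 CPM in goblet-like cells, 5.29-fold higher (95% interval 4.30 to 6.55), and at 0.239 (12 UMIs) and 8.11 CPM (378 UMIs) in other epithelial-like cells, 34.0-fold higher (95% interval 19.2 to 66.4). All 3 genes were higher in Mettl14_cKO in both groups of cells. Asns and Trib3 stayed past 1.5-fold in all 16 alternative settings in both, Chac1 in all 16 in other epithelial-like but in 10 of 16 in goblet-like cells.

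Asns, Chac1 and Trib3 had higher values in Mettl14_cKO in each of the 4 larger classes of other epithelial-like cells, by ratios that were lowest in enteroendocrine-like cells for Asns and Chac1. Chac1 was at 0.288 and 15.8 CPM in unnamed epithelial cells, 0.863 and 18.8 CPM in colonocyte-like, 0.765 and 9.83 CPM in cycling-like and 9.30 and 10.7 CPM in enteroendocrine-like cells, the last within counting error (5.60 to 14.5 and 6.74 to 16.3 CPM). Asns was at 22.3 and 87.8, 10.8 and 47.0, 31.4 and 70.3, and 55.3 and 84.0 CPM in the same order, so that it was past 1.5-fold in enteroendocrine-like cells too. Trib3 had 2, 5, 3 and 2 UMIs in control in these classes and was at 8.67, 6.11, 7.50 and 4.89 CPM in Mettl14_cKO, the last from 10 UMIs. In T or NK-like cells Asns was at 13.5 (95% interval 6.49 to 24.9) and 17.0 CPM (9.92 to 27.3), and Trib3 and Chac1 had 2 and 1 UMIs in control and 1 and 2 UMIs in Mettl14_cKO. With cells thinned to 1700 UMIs, 0.154% (6 of 3899 cells) of control and 2.33% (73 of 3137 cells) of Mettl14_cKO other epithelial-like cells had a Chac1 UMI (0.986% and 11.4% before thinning), beside 0.592% (1 of 169 cells) and 0.402% (1 of 249 cells) of T or NK-like cells. The T or NK-like shares rest on 1 cell each. Of the 57 control UMIs, 19 came from the 220 enteroendocrine-like cells. For Trib3 the shares were 0 of 3899 cells in control, which allows up to 0.0769%, and 1.21% (38 of 3137 cells) in Mettl14_cKO (0.269% and 7.24% before thinning), beside 0.592% (1 of 169 cells) and 0 of 249 T or NK-like cells.

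Ddit3, which encodes the stress factor CHOP, went the other way. It was at 90.8 CPM in control and 23.4 CPM in Mettl14_cKO goblet-like cells, 3.88-fold lower (95% interval 3.61 to 4.18), and stayed at least 1.5-fold lower in all 16 alternative settings. In other epithelial-like cells it was at 21.4 and 11.8 CPM, 1.81-fold lower (95% interval 1.63 to 2.01), and stayed so in 12 of 16 settings. By class it was at 26.5 and 26.2 CPM in colonocyte-like, 12.7 and 11.3 CPM in cycling-like, 38.2 and 25.4 CPM in enteroendocrine-like and 12.5 and 9.20 CPM in unnamed epithelial cells. In none of these classes was it lower by as much as the 1.81-fold of the pooled cells. The pool held 1858 colonocyte-like cells in control and 357 in Mettl14_cKO, and the part of this make-up was not tested. With cells thinned to 1700 UMIs, 14.4% (571 of 3974 cells) of control and 4.04% (92 of 2280 cells) of Mettl14_cKO goblet-like cells had a Ddit3 UMI (45.1% and 21.6% before thinning), beside 6.51% (11 of 169 cells) and 7.63% (19 of 249 cells) of T or NK-like cells, which may express it. GENCODE M21 lists a second, overlapping gene under the symbol Ddit3, and the sources used here do not give how reads in the overlap were counted.

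**Figure D3:**
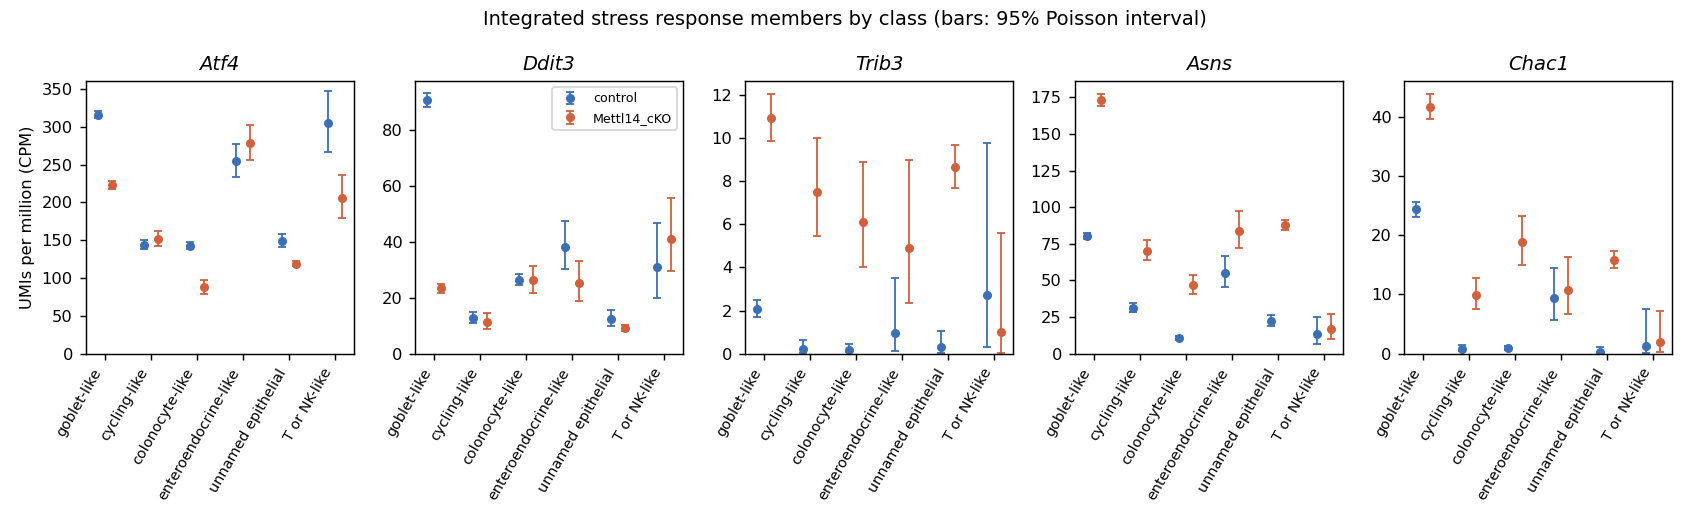
Levels of the 5 integrated stress response genes in CPM, by class and library (control blue, Mettl14_cKO orange), with bars for the 95% Poisson interval of counting error. Among the classes plotted Ddit3 is highest in control goblet-like cells, while Trib3, Asns and Chac1 are higher in Mettl14_cKO in goblet-like, cycling-like, colonocyte-like and unnamed epithelial cells.

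The control goblet-like clusters were unequal in Ddit3. It was at 176 CPM in the largest (1183 cells) and 111 CPM in one of 441 cells, and at 82.2, 45.3, 42.8 and 34.6 CPM in the other 4. The Mettl14_cKO goblet-like clusters were at 34.0, 17.7 and 15.7 CPM, so the highest of them lay just below the lowest of control. The largest control cluster also had the highest Chac1 among the control goblet-like clusters, 50.5 CPM, beside 52.3 CPM in the highest Mettl14_cKO cluster, and the 2 ranges of Chac1 overlapped. Its Asns level, 108 CPM, lay above that of the lowest Mettl14_cKO cluster, the one with the high mitochondrial share. The Mettl14_cKO cells in the control clusters had 60.1 CPM of Ddit3, between the 90.8 CPM of the control cells and the 19.6 CPM of the other Mettl14_cKO cells, and 115 CPM of Asns, between 80.3 and 179 CPM. These cells were spread over the control clusters in other proportions than the control cells. The cluster highest in Ddit3 held 1183 control and 22 Mettl14_cKO cells, and the lowest held 540 and 32. The part of this mix in the levels was not tested.

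Within each library all 4 integrated stress response genes that passed the filter were at least 1.5-fold higher in goblet-like than in other epithelial-like cells, beside 16.0% of all genes in control and 10.6% in Mettl14_cKO. In control the log2 ratios were 3.57 for Chac1, 2.04 for Ddit3, 1.94 for Asns and 1.08 for Atf4. In Mettl14_cKO they were 1.40, 0.93, 1.08 and 0.80, lower for each of the 4. Trib3 had 1.31 in control and 0.39 in Mettl14_cKO. The median of the 4 was 1.99 in control and 1.01 in Mettl14_cKO. The difference between the libraries, on the log2 scale without a pseudocount, was -2.96 (95% interval -3.37 to -2.56) for Chac1, -1.10 (95% interval -1.28 to -0.92) for Ddit3 and -0.90 (95% interval -1.02 to -0.79) for Asns. For Chac1 and Asns it went with higher levels in other epithelial-like cells of Mettl14_cKO, and for Ddit3 with a lower level in its goblet-like cells.

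The wider integrated stress response list held 44 measured genes, with 36 past the filter. In other epithelial-like cells 17 of the 36 were at least 1.5-fold higher in Mettl14_cKO and 2 lower, beside 18.9% and 11.8% of all genes. Within enteroendocrine-like cells the balance was the other way, with 2 higher and 10 lower, beside 19.1% and 19.3% of all genes. The cystine transporter gene Slc7a11 was at 1.53 CPM in control and 14.6 CPM in Mettl14_cKO, Eif4ebp1, a brake on cap-dependent translation, at 50.2 and 242 CPM, and Psph, of serine synthesis, at 15.2 and 58.8 CPM. Atf3, a stress-induced factor, was at 570.4 and 145 CPM and so 3.94-fold lower. In goblet-like cells 9 of the 36 were higher and 5 lower in Mettl14_cKO, beside 11.1% and 17.0% of all genes. There Eif4ebp1 was at 94.2 and 324 CPM, Psph at 20.4 and 68.8 CPM and Atf5 at 7.72 and 26.9 CPM. Atf3 was at 1242 and 275 CPM, Ppp1r15a, which directs the eIF2alpha phosphatase, at 267 and 94.8 CPM, and Pycr1, of proline synthesis, at 26.6 and 9.14 CPM. Eif4ebp1 and Psph were thus higher and Atf3 lower in both groups of cells. Pycr1, although of amino acid synthesis as Psph is, was on the lower side in goblet-like cells.

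Many genes that respond to cell dissociation were lower in Mettl14_cKO goblet-like cells, as were Ddit3 and Atf3. Of 21 cytosolic heat shock and immediate early genes past the filter, 12 were at least 1.5-fold lower and 1 higher in goblet-like cells, beside 17.0% and 11.1% of all genes, with a median log2 ratio of -0.61. In other epithelial-like cells 8 were lower and none higher, beside 11.8% and 18.9%. Within enteroendocrine-like cells alone 6 were lower and 5 higher, beside 19.3% and 19.1% of all genes. Ier3 was at 222 and 72.8 CPM, Fosb at 173 and 60.5 CPM and Zfp36 at 185 and 75.0 CPM in control and Mettl14_cKO goblet-like cells, and the heat shock gene Hspa1b at 18.4 and 32.5 CPM. The part of dissociation in the levels of Ddit3 and Herpud1 was not tested.

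Other genes of translocation and folding were also concentrated in goblet-like cells, while most further degradation genes lay between the lines. Of 30 translocation and processing genes past the filter, 24 were at least 1.5-fold higher in goblet-like than in other epithelial-like cells in control and 19 in Mettl14_cKO, beside 16.0% and 10.6% of all genes, and none was lower. Sec11c, a subunit of the signal peptidase, was at 1189.6 CPM in goblet-like and 435 CPM in other epithelial-like cells of control, and Srpr, of the receptor for the signal recognition particle, at 177 and 65.1 CPM. Of 27 further folding and glycoprotein quality genes 17 and 18 were higher, beside the same 16.0% and 10.6% of all genes. None was lower, beside 12.2% and 17.8%. Agr2, a disulfide isomerase needed to make Muc2, was at 24447 and 1773 CPM in control goblet-like and other epithelial-like cells. Of 22 further ER-associated degradation genes 5 (22.7%) were higher in control and 6 (27.3%) in Mettl14_cKO, beside 16.0% and 10.6% of all genes. None was lower, and 17 and 16 lay between the lines. Between the libraries these 3 lists lay between the lines for most genes in goblet-like cells, with 0 of 30 higher and 1 lower for translocation (Srpr), 4 of 27 higher and 1 lower for folding, and 2 of 22 higher and 2 lower for degradation, beside 11.1% of all genes higher and 17.0% lower. Among 8 secretory transcription factor genes past the filter, none was higher and 2 were lower there, beside the same 11.1% and 17.0% of all genes: Creb3l4, a relative of Creb3l1, at 152 and 55.8 CPM and Atf6b at 20.4 and 12.4 CPM.

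**Figure D4:**
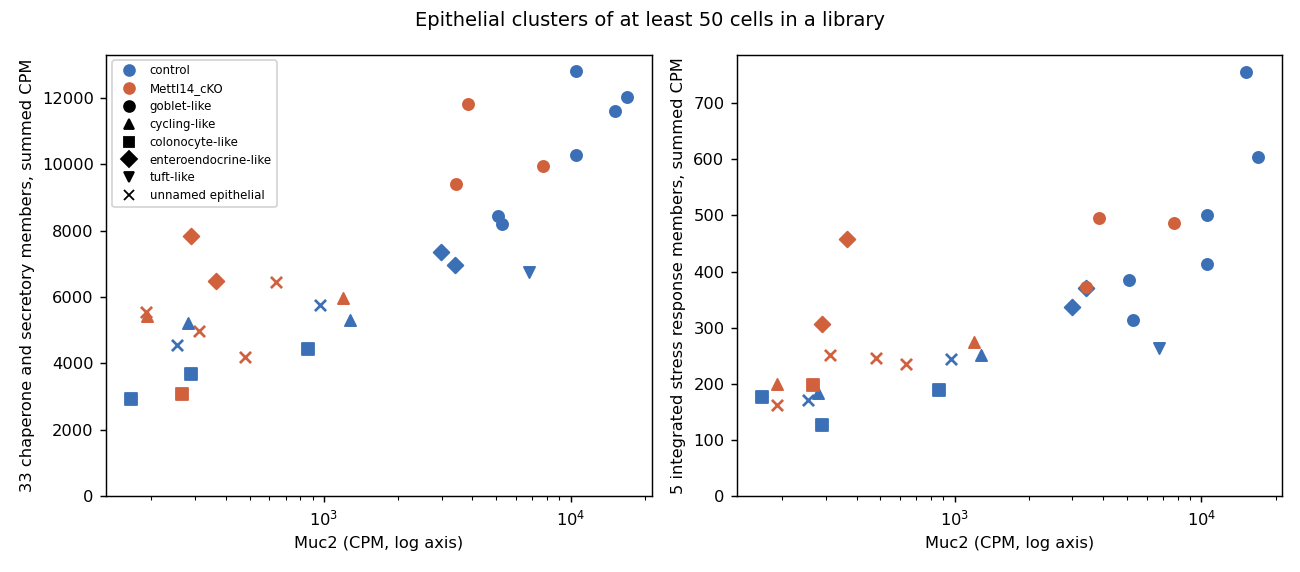
Summed CPM of the 33 chaperone and secretory genes (left) and of the 5 integrated stress response genes (right) against Muc2 CPM on a log axis, 1 point for each of 16 control (blue) and 12 Mettl14_cKO (orange) epithelial clusters of at least 50 cells, with the shape giving the class. Goblet-like clusters of both libraries sit at the top of the left plot, and those of Mettl14_cKO do so at lower Muc2 levels than most of control.

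Across clusters of all epithelial classes the summed chaperone level went with Muc2, which is among the markers used to name goblet-like clusters. As a description over clusters of 1 library, which share its depth and free RNA, Pearson's r of the log2 levels was 0.940 over 16 control and 0.742 over 12 Mettl14_cKO clusters, and with the median mitochondrial share it was -0.374 and -0.257. With Agr2 the chaperone sum went at 0.969 and 0.784. Ern2 went with Muc2 at 0.913 and 0.905. Among goblet-like clusters alone the chaperone sum did not follow the order of Muc2. The highest control sum, 12808.5 CPM, was at 10484 CPM of Muc2, which was not the highest Muc2 level. The Mettl14_cKO goblet-like cluster highest in Muc2, at 7712 CPM, had a sum of 9950 CPM. The largest Mettl14_cKO goblet-like cluster of low mitochondrial share (999 cells) had 11818 CPM of the 33 genes at 3841 CPM of Muc2. The control goblet-like clusters with 5067 and 5284 CPM of Muc2 had 8427 and 8212 CPM, and those with 15160.2 and 16899.5 CPM of Muc2 had 11605 and 12024 CPM. That Mettl14_cKO cluster thus had a summed chaperone level like that of control clusters with a Muc2 level several times its own. Its Agr2 level, 30416 CPM, lay between the 25244 and 31178 CPM of those control clusters. Hspa5 made up 1789 CPM of its sum, against 716 and 789 CPM in the latter 2.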

How the data were processed

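The 2 droplet libraries of colonic crypt cells, 1 per genotype and each a pool of 3 mice, were compared. The deposited matrices, which the authors produced in Cell Ranger, hold whole-number counts of UMIs per gene and barcode (3.1.0 per the file headers, 3.0.0 per the submitters' processing notes, which also name Seurat 3). The sources used here do not give the genome build, the transcript end or the strand used in counting. From the deposited counts, a filter of 500 or more genes and less than 25% mitochondrial UMIs removed 1027 control and 2100 Mettl14_cKO barcodes, and doublets with a Scrublet score of at least 0.25 were dropped (77 and 53), which left 9077 and 7072 cells. Both libraries were clustered together in scanpy 1.11.5 (2000 variable genes without the members, 30 components, Leiden resolution 1). A cluster was called after a type where at least 3 of that type's markers were among its leading 50 genes. This naming rule was set after the data were seen and replaced an earlier one that left a large goblet cluster unnamed. UMIs were summed by class and library and divided by their total to CPM. The log2 ratios used a pseudocount of 1 CPM, and genes with a mean of at least 10 CPM over goblet-like and other epithelial-like cells of both libraries were counted, with 1.5-fold as the line. No test was made, since each genotype had 1 library. Intervals are exact Poisson for levels, exact binomial for ratios, and Wald for differences of ratios, all at 95%, and cover counting error only. The limit beside a share of 0 is 3 counts of the total. The depth, 57642269 and 35875591 UMIs in goblet-like cells, keeps that error small for most members. The ratios and their intervals were tested on Poisson counts simulated with known folds. The cell filter, doublet removal, clustering and naming were not tested in this way. The members and lists were chosen with earlier results of these data known, and the cluster ranges, the split of the goblet-like cells and 2 of the 16 alternatives were chosen after the data were seen. Full values were given for the 4 highest and 4 lowest chaperone and secretory members in each comparison, the sensors and the integrated stress response members, and for other lists genes came from the 3 highest and 3 lowest. Other members, named for their role, fall outside that rule of size. Promoters came from RefSeq (GRCm38.p6), of which 31 of the 38 members had a window.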

Additional observations from a re-analysis of the deposited data

How the results depend on the processing

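No paired analysis was possible because each genotype had 1 library. Over 16 alternatives, the chaperone and secretory members at least 1.5-fold higher in goblet-like than in other epithelial-like cells numbered 24 to 29 in control and 27 to 31 in Mettl14_cKO. Counts between the libraries moved more, and the cause was not tested. Shares of all genes tested in each setting stand in brackets, higher then lower where both are given. In goblet-like cells the chaperone and secretory members called were 2 higher and 9 lower at Leiden resolution 2 (11.9% and 13.2%), 9 lower with cells thinned (20.1%) or weighted equally (18.9%), and 9 higher and 8 lower with the T or NK-like level subtracted (20.9% and 23.2%), a step after which 1 such member was lower in goblet-like than in other cells of control. The integrated stress response members there were 1 higher with thinning, 2 lower under the stricter filter, and 1 higher and 2 lower with no doublets removed, at resolution 0.5 or 2, with each library clustered on its own, or without the goblet-like cluster highest in cycling markers. In other epithelial-like cells the chaperone and secretory members called were 1 higher and 5 lower under the stricter filter (15.8% and 11.3%), 2 and 5 with no doublets removed (15.9% and 11.2%) or at resolution 0.5 (15.9% and 11.2%), 2 and 7 at resolution 2 (16.7% and 12.1%), 0 and 10 with separate clustering (14.8% and 12.0%), 2 and 8 with the classes weighted equally (14.7% and 10.4%), 2 and 1 with a pseudocount of 10 CPM (12.9% and 8.60%), 15 and 1 with the subtraction (29.5% and 22.3%), and 3 higher with median ratio scaling (16.2%). No integrated stress response member was lower there (0 of those tested) with thinning, the larger pseudocount, the subtraction or cells weighted equally. With the classes weighted equally, 2 integrated stress response members were higher in goblet-like than in other cells of Mettl14_cKO. Of 2432 values of single members under the alternatives, 1116 stayed within counting error of the main value, 1308 moved beyond it and 8 of members past the line changed sign: Atf6 in goblet-like over other cells of Mettl14_cKO to -0.000764 and Pdia5 in other cells between the libraries to -0.0125, both with the classes weighted equally, and Kdelr3 in other cells between the libraries to -0.29 (stricter filter), -0.25 (no doublets removed), -0.19 and -0.49 (resolutions 0.5 and 2), -0.90 (separate clustering) and -0.53 (classes weighted equally). Of members between the lines, 19 values changed sign and ended past the line, among them in other cells between the libraries Fkbp11 from 0.15 to -1.56, Herpud1 from 0.10 to -0.91 and Ern2 from 0.20 to -0.81 with separate clustering, Creb3l1 from 0.04 to -0.89 with the classes weighted equally, and, with the subtraction, Pdia6 from -0.01 to 5.72, Dnajb11 from -0.11 to 2.18 and Syvn1 from -0.21 to 0.88. Canx in goblet-like cells went from -0.04 to 1.22 with the subtraction. Where the T or NK-like level of a gene was above that of a class, the subtraction left 0. Ratios such as that of Pdia6, and counts that include them, then rest on the pseudocount. Pooled mice, 1 library per genotype and classes drawn from different clusters limit all comparisons between the libraries. Depth limits Trib3, Ern1 and the tuft-like class.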
